A study of Homo sapiens with 6 samples.

Results

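RNA bound to the helicase DDX5 was studied here in 10 genes whose introns held clusters of peaks: ADGRA3, COPG2, NUTM2B-AS1, LINC00639, PSMB7, GPR173, VOPP1, NUCB2, CRMP1 and CSPG4. They were chosen by their peaks, because intronic regions found in every list had been seen in them in these same lists, so their peak counts and fold enrichments are a description and carry no test. All 10 were matched, of 13403 genes with a peak summit in the gene body in at least 1 list. The lists came from RNA immunoprecipitation and sequencing on nuclei of RH30 cells, a line grown from an alveolar rhabdomyosarcoma, a muscle-like childhood tumour, that is positive for the PAX3-FOXO1 fusion gene. All samples shared this single line and had no other treatment in the labels. The 3 samples of the DDX5 immunoprecipitate, made with antibody ab126730, each gave 1 peak list. The 3 INPUT samples, which had no antibody, were not analysed here. The labels call the samples biological replicates, and the libraries were unstranded, so sense and antisense RNA cannot be told apart.

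DDX5 is a DEAD-box RNA helicase of the nucleus with known roles in splicing, transcription and RNA processing. Nuclear RNA holds transcripts that are still being made or spliced, so it contains intron sequence that mature messenger RNA lacks. It can also contain RNA from beyond the 3' end of a gene, where RNA polymerase goes on after the cleavage site. An intron of one gene can overlap an exon, an intron or the downstream flank of a gene on the other strand, and an unstranded library counts all of them alike.

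One place in each of 8 members is shown first. It is the place in that gene where the 3 lists put their summits closest together within an intronic region found in all of them. In PSMB7 the region chr9:124357961-124358623 tied with the place shown, both with a spread of 18 bp. The places were not ranked against other genes, and the counts over these windows cover the 8 members only. Each sequence is 101 bases of GRCh38, centred on the middle summit and read 5' to 3' along the gene's strand. Capitals mark the bases from the first to the last of the 3 summits. No sequence overlaps an annotated exon.

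NUCB2 chr11:17344039-17344139: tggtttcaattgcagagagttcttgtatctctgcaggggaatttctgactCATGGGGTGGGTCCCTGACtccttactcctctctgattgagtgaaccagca
CRMP1 chr4:5822749-5822849: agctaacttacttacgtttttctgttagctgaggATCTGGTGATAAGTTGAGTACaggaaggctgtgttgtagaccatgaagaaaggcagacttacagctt
COPG2 chr7:130537695-130537795: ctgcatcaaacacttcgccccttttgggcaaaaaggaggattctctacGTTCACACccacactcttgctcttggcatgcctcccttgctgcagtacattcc
PSMB7 chr9:124358967-124359067: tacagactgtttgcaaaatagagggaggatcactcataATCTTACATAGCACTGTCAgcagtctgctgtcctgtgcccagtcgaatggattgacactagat
NUTM2B-AS1 chr10:79679892-79679992: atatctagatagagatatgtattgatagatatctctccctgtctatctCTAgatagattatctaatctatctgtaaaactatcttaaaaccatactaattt
LINC00639 chr14:38801263-38801363: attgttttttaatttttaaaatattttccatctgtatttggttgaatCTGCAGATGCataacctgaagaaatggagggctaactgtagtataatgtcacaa
GPR173 chrX:53075487-53075587: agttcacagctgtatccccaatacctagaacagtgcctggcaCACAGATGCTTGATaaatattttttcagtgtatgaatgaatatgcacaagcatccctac
CSPG4 chr15:75706469-75706569: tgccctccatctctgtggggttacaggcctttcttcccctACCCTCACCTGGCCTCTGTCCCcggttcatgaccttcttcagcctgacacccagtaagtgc

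The NUCB2 place lies past the 3' end of the gene's canonical transcript, inside an intron of a longer isoform. The CRMP1 place lies in intron 13 on the minus strand, the COPG2 place in intron 20, the PSMB7 place in intron 6, the NUTM2B-AS1 and LINC00639 places in intron 3, and the GPR173 and CSPG4 places in intron 1. GPR173 and NUCB2 are on the plus strand and the other members on the minus strand. The summits of the 3 lists fell within 3 bases of each other in NUTM2B-AS1, 8 in COPG2 and 10 in LINC00639. In CSPG4 they spanned 22 bases and in CRMP1 21. Fold enrichment at these summits, a ratio over the peak caller's background that the authors deposited, was 5.35, 1.97 and 3.14 in replicates 1, 2 and 3 at the COPG2 place. The bases differ as much as the places do: GC content of the windows ran from 26.7% in NUTM2B-AS1 to 58.4% in CSPG4. The splice donor letters GTAAGT, searched on both strands, were in the CRMP1 and CSPG4 windows and in none of the other 6. In the CRMP1 window they were only on the strand opposite to the gene. The polyadenylation letters AATAAA were in none of the 8. Over windows of this size at all intronic summits, GTAAGT was in 6.24% in members and 6.20% in other genes. AATAAA was in 17.2% and 15.05% (means of the 3 lists). With only 8 windows, these counts are not read as many or few.

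The lists of replicates 1, 2 and 3 held 23715, 23651 and 45832 intervals, and the sequencing depth behind them is unknown. Whether the lists fit the labelled cell type was checked with markers. Of 10 genes typical of alveolar rhabdomyosarcoma, 9 had an interval in every list, ALK being the exception with 1, 0 and 1. Of 8 markers of blood, epithelium, liver, glia and endothelium, 7 had none in any list and PECAM1 had 1, 0 and 1. The share of all genes with an interval in every list is not given here, so the marker counts are a description.

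In the 10 gene bodies lay 159 intervals of replicate 1, 151 of replicate 2 and 201 of replicate 3, on average 170.3 ± 26.9 (SD, n = 3). Of these 511 intervals, 359 had their best summit outside every annotated exon of any gene and are called intronic, 117 had it in an exon of the member and 35 in an exon of another gene that overlaps it. The intronic share was 70.6% ± 7.17 (SD, n = 3). Over all intervals in gene bodies it was 12.3%, 34.6% and 16.8% in replicates 1, 2 and 3. Overlapping intervals, by 1 bp or more, were joined across the lists into regions, and 40 regions in the members had an intronic best summit in all 3 lists. The series as a whole had 288 such regions, so 13.9% of them lay in these 10 genes. For comparison, 1.81% of the 15906 regions with an intronic summit in any list had one in every list. Each of the 10 members held at least 1 intronic region found in all lists, as did 1.85% of the 13403 genes, and 8 members held at least 3, as did 0.172%, which is 23 genes. The rule used these counts, so nothing is read from that contrast.

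COPG2 led with 12 regions found in all lists, the highest count of any gene. ZNF91, which is not a member, came next with 7. Among the members NUTM2B-AS1 followed with 6, PSMB7 and VOPP1 with 4 each, and ADGRA3, GPR173, NUCB2 and CRMP1 with 3 each. LINC00639 and CSPG4 held 1 region each, a count they shared with other genes to a total of 201, so in these a cluster was not found in all lists. LINC00639 had its cluster mainly in replicate 3. CSPG4 had only 6 intronic intervals over the 3 lists, and 13 of its intervals lay in its exons.

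**Figure D1:**
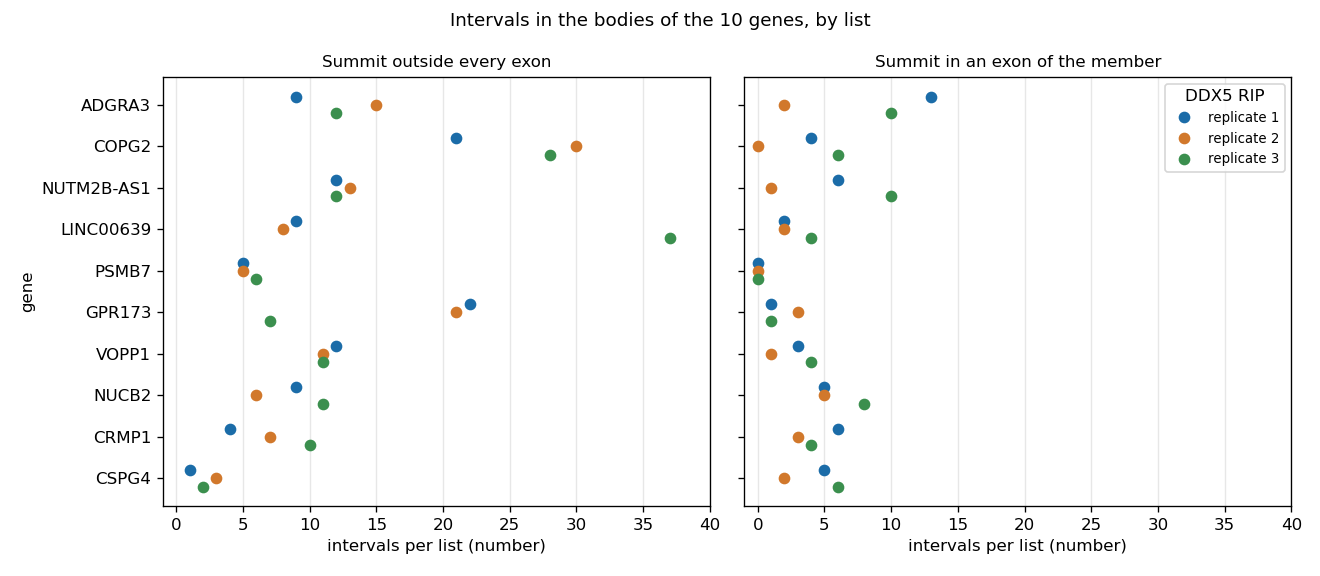
Number of intervals per list in each of the 10 gene bodies, with the best summit outside every exon (left) or in an exon of the gene (right); each point is 1 list. LINC00639 had 37 intronic intervals in replicate 3 against 9 and 8 in the others, GPR173 had 7 in replicate 3 against 22 and 21, and PSMB7 had no exonic interval in any list.

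The members were grouped by layout against the Ensembl canonical transcript and the neighbouring genes, a grouping made after the values were seen. Of the 40 regions, 11 in 4 genes lay past the canonical 3' end. A further 16, in COPG2 and PSMB7, lay in introns beyond the 3' end of a gene that runs toward them on the other strand, and the remaining 13, in 5 genes, lay in introns of the canonical transcript. The layouts are not exclusive. The CRMP1 cluster also lies 3.89 to 14.7 kb past the 3' end of the facing gene EVC, the VOPP1 cluster 20.2 to 36.7 kb past that of LANCL2, and the NUTM2B-AS1 cluster ends 12.8 kb past that of the plus-strand transcript ENSG00000244733.

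ADGRA3 encodes an adhesion G protein-coupled receptor, and its intervals ran on beyond the last exon. The cluster spanned chr4:22366579-22387495, from 0.119 kb before the canonical 3' end to 20.8 kb past it, and held 30 of the gene's 36 intronic intervals. Of the 13 annotated transcripts, 1 crosses this stretch, a nonsense-mediated decay isoform that ends 42.3 kb past the canonical end, and without that isoform the cluster would count as intergenic. Intronic intervals numbered 9, 15 and 12 in replicates 1, 2 and 3. The interval with the highest −log10 q, called the lead interval below, had a fold enrichment of 15.6, 7.61 and 11.6. Replicate 1 was highest and replicate 2 lowest in all 3 regions found in all lists. The widest interval measured 9.22 kb with 32 summits in replicate 1 and 10.1 kb with 39 summits in replicate 3. In replicate 2 it measured 1.18 kb with 4 summits. It had the highest fold of its list in the gene only in replicate 1. In replicates 2 and 3 its fold was 4.19 and 9.04. Intervals covered 93.6%, 27.4% and 89.5% of the cluster. Median folds in replicates 1, 2 and 3 were 5.41, 3.16 and 4.39 over the intronic intervals. Over the intervals in exons of the gene they were lower, at 2.44, 2.71 and 2.24, and replicate 2 had only 2 of these.

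VOPP1 encodes a membrane protein of vesicles that is overexpressed in some cancers. Its cluster at chr7:55453977-55470480 began 0.133 kb past the canonical 3' end and reached 16.6 kb past it, inside 1 of 17 transcripts, which has no defined coding sequence. The counts were close between lists, with 12, 11 and 11 intronic intervals, of which 12, 9 and 11 were in the cluster. Folds were low, with lead intervals at 3.56, 5.09 and 3.83, and cover of the cluster was 22.6% ± 3.58 (SD, n = 3). Replicate 2 gave the highest fold in 3 of the 4 regions found in all lists, unlike ADGRA3. The region at chr7:55463429-55464157 had folds of 2.96, 5.09 and 2.66. The region nearest the canonical end, chr7:55468895-55469977, had 2.48, 2.98 and 2.01. The facing gene LANCL2 on the plus strand ends 2.32 kb before the VOPP1 body, and its 3' end is 20.2 kb from the near edge of the cluster.

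NUCB2 encodes a calcium-binding protein from which the peptide nesfatin is cut. Intronic intervals numbered 9, 6 and 11, and 24 of these 26 lay past the canonical 3' end. Exons of the gene held a further 5, 5 and 8, some of them in exons of a longer isoform beyond that end. The cluster at chr11:17330842-17346026 ended 13.8 kb past the canonical end. Of 19 transcripts, 2 run 1 kb or more past that end, the farthest to 17.8 kb. Lead folds were 7.58, 6.73 and 6.85, a mean of 7.05 ± 0.458 (SD, n = 3), but the lead intervals of the 3 lists lay at different places, and the highest intronic fold of replicate 3 was 9.57. At chr11:17339064-17339458 all lists had a narrow interval, with folds of 7.58, 5.46 and 6.60 and best summits within 44 bp. At chr11:17343224-17346026 replicates 1 and 2 had 4 intervals each where replicate 3 had a single one of 2.80 kb, with folds of 4.94, 6.73 and 7.34. The same stretch was therefore split in 2 lists and joined in the third.

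CRMP1 encodes a collapsin response mediator protein of growing axons. Its 3 regions found in all lists straddled the canonical 3' end. The region past the end, chr4:5819714-5820251, had folds of 3.38, 3.13 and 3.08. The region in intron 13 had 2.80, 2.66 and 2.28, and the region in intron 12, chr4:5827100-5827695, had 4.01, 3.17 and 4.94. The spread between lists in the first of these was 0.159 around a mean of 3.20 (SD, n = 3). Farther downstream, 4, 3 and 3 intervals in the body of CRMP1 had their summits in exons at the end of EVC, a ciliary gene on the plus strand whose 3' end lies inside a long CRMP1 isoform. The strongest EVC exon interval had a fold of 3.61, 13.3 and 12.2 in replicates 1, 2 and 3, while the others of replicate 3 had 2.91 and 4.02. RNA of CRMP1 introns, RNA past the end of CRMP1 and RNA that runs on from EVC cannot be told apart.

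**Figure D2:**
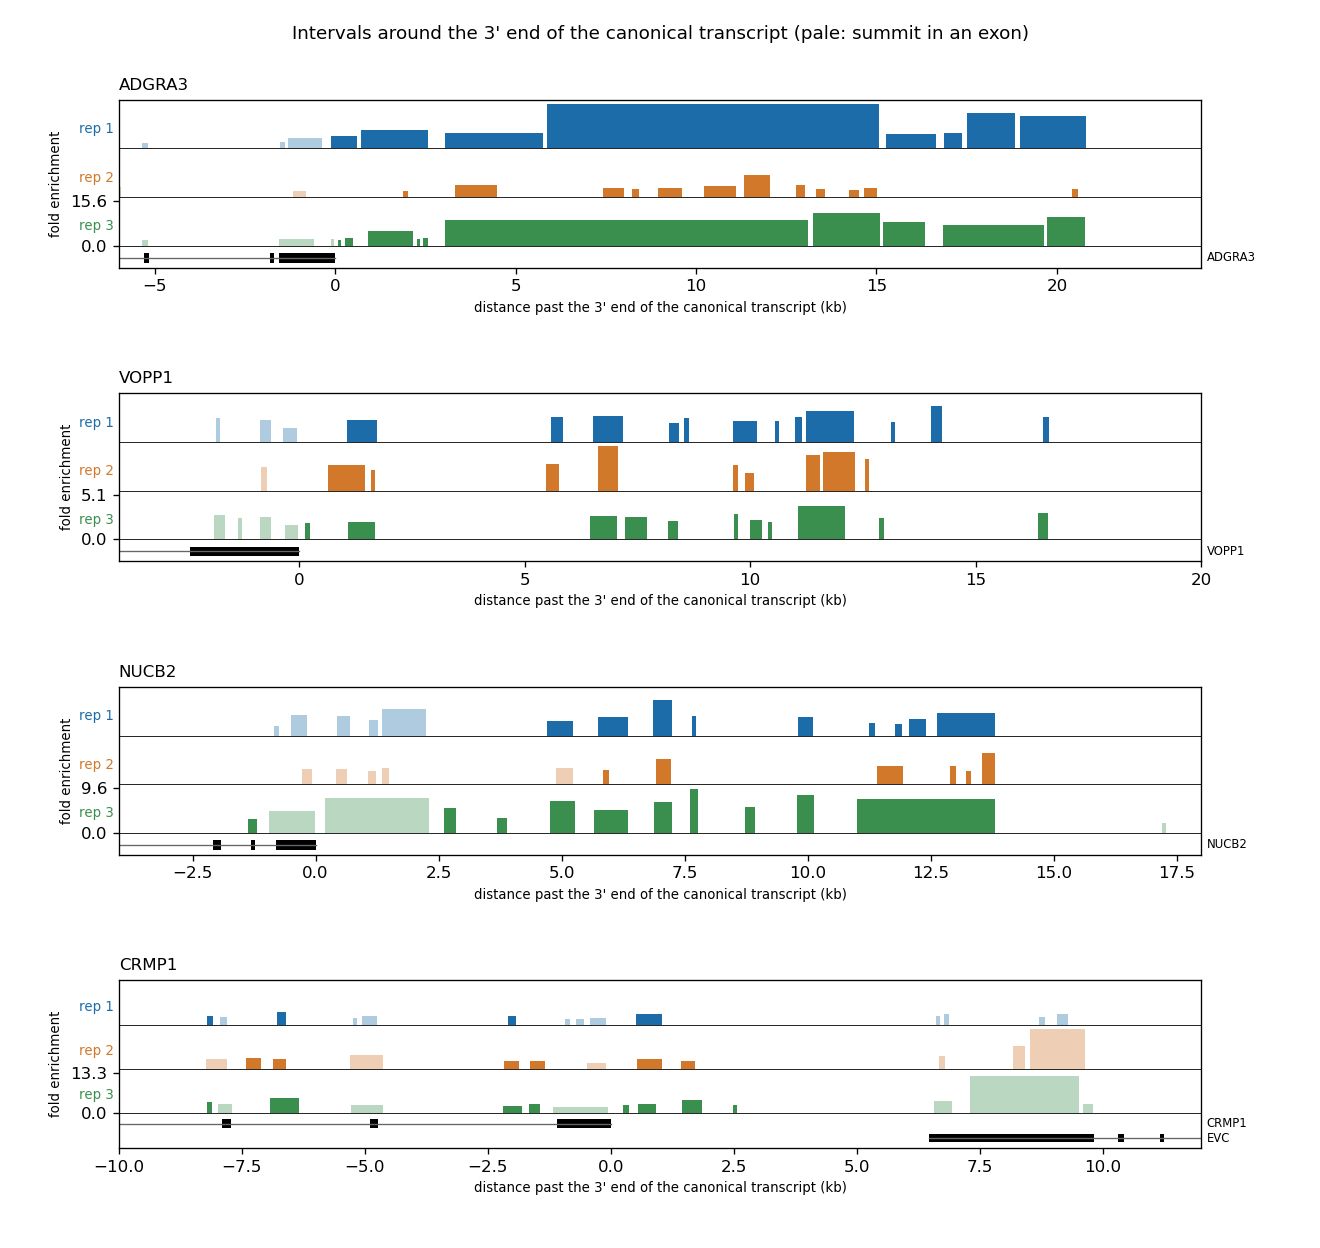
Intervals of each list around the 3' end of the canonical transcript of ADGRA3, VOPP1, NUCB2 and CRMP1, with distance past that end in kb on the x axis, fold enrichment as bar height on a scale set per gene, and canonical exons in black below; pale bars have their best summit in an exon of any isoform or gene. ADGRA3 is covered nearly without gaps in replicates 1 and 3 up to 20.8 kb past the end, while VOPP1 holds separate narrow intervals.

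Intervals past the canonical 3' end were more frequent in the members than in other genes, and only ADGRA3, VOPP1, NUCB2 and CRMP1 supplied them. They were 30 of 104, 29 of 119 and 34 of 136 of the members' intronic intervals in replicates 1, 2 and 3, 93 in all. In other genes the shares were 5.50%, 2.85% and 3.22%, and 3.41% with the lists pooled. The mean was 26.1% ± 2.42 in members and 3.85% ± 1.44 elsewhere (SD, n = 3), and the ranges did not overlap. Of the 248 intronic regions found in all lists outside the members, 27 (10.9%) lay past the canonical end, against 11 of 40 (27.5%) in members. The members were chosen on intronic signal in these lists and only 4 genes stand behind the difference, so it is given without a test.

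COPG2 encodes a gamma subunit of the COPI vesicle coat. All 12 of its regions found in all lists lay in intron 20, and 75 of its 79 intronic intervals did. The cluster ran over chr7:130508380-130539645, a span of 31.3 kb. MEST, an imprinted gene on the plus strand, ends inside the last exon of COPG2, and the cluster covers 1.92 to 33.2 kb past that end. At its far side it meets COPG2IT1, a non-coding transcript of the plus strand at chr7:130538954-130546900, whose exon held a further 3, 7 and 7 summits. A short plus-strand transcript near the other side, ENSG00000270953, held 1 in each list. The strand of the RNA is unknown, so COPG2 intron RNA, RNA that runs on from MEST and plus-strand RNA of COPG2IT1 cannot be told apart. The number of intronic intervals in COPG2 was 21, 30 and 28, yet the widths and folds went the other way. Replicate 1 had the fewest intervals and covered 83.9% of the cluster, replicate 2 had the most and covered 36.7%, and replicate 3 covered 67.8%. The highest fold in the cluster was 8.78, 3.03 and 4.68. Replicate 1 was highest in all 12 regions and replicate 2 lowest in 9. The strongest region, chr7:130532587-130535304, had folds of 8.78, 2.70 and 4.68, and the weakest, chr7:130509121-130509451 at the MEST side, had 2.47, 1.59 and 1.86. COPG2 exons held 4, 0 and 6 intervals.

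PSMB7 encodes a catalytic beta subunit of the 20S proteasome. It had 5, 5 and 6 intervals and every one was intronic, in introns 6 and 7 next to the 3' end of the gene. The gene body ends 158 bp from the 3' end of NEK6, a mitotic kinase gene on the plus strand, and the cluster at chr9:124353535-124359136 covers 0.228 to 5.83 kb past the end of NEK6. RNA of PSMB7 introns and RNA that runs on from NEK6 cannot be told apart. NEK6 itself held 3, 3 and 9 intervals. Lead intervals had folds of 3.96, 3.21 and 4.73. Of the 4 regions found in all lists, the one in intron 7, chr9:124353535-124354690, had 3.06, 3.21 and 4.73, with best summits within 110 bp. The others, in intron 6, were chr9:124355922-124357632 with 3.96, 2.84 and 3.05, chr9:124357961-124358623 with 2.81, 2.57 and 2.47, and chr9:124358795-124359136 with 3.35, 2.98 and 3.44. In these 3 the best summits of the lists lay within 31, 18 and 18 bp. Some intervals reach across the short last exons, although no best summit lay in one.

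**Figure D3:**
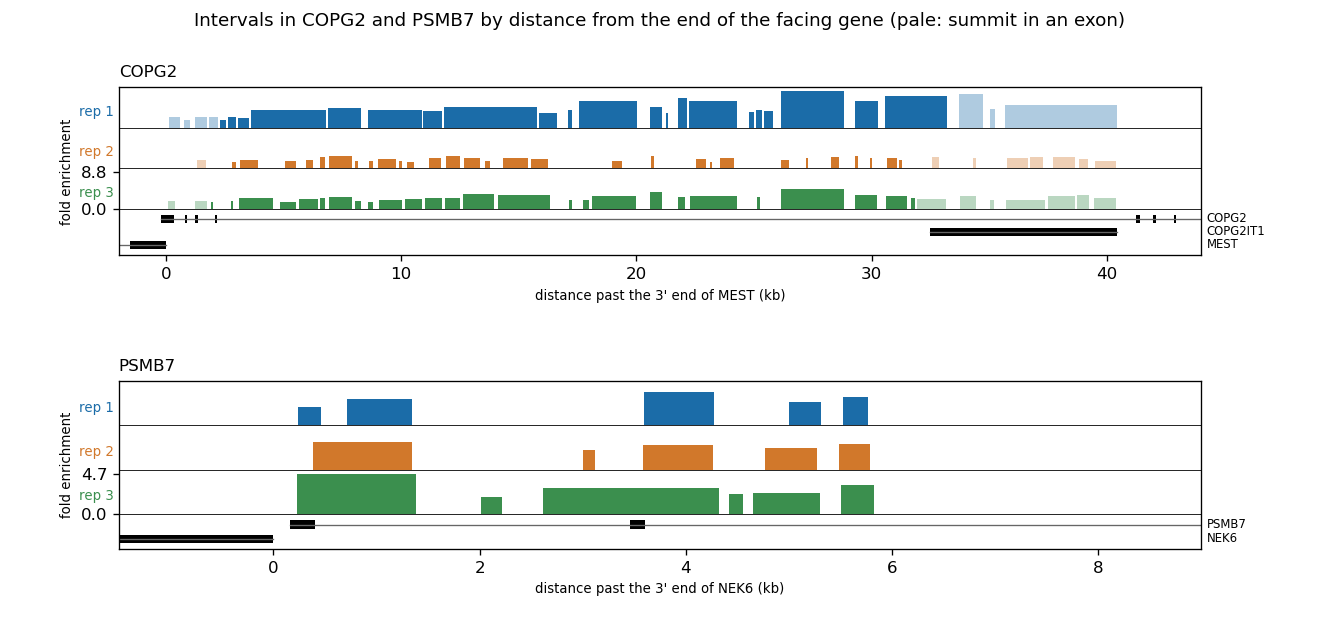
Intervals of each list in COPG2 and PSMB7 by distance past the 3' end of the facing gene (MEST or NEK6) in kb, with fold enrichment as bar height on a scale set per gene and the canonical exons of each gene in black below; pale bars have their best summit in an exon. In COPG2 the bars of replicate 1 are tallest and reach 8.78, and those of replicate 2 reach 3.03; in PSMB7 the highest bars are at 3.96, 3.21 and 4.73.

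GPR173 encodes an orphan G protein-coupled receptor of the brain and has 2 exons. Its intron 1 of 27.0 kb held every intronic interval, 22, 21 and 7 in replicates 1, 2 and 3, over chrX:53050420-53076328. Replicate 3, the longest list, had the fewest. The lead folds were 4.53, 10.6 and 6.57. The 3 regions found in all lists lay in the 3' part of the intron, since replicate 3 had no interval in the first part of it. The region chrX:53071857-53072354 had folds of 6.13, 7.32 and 6.57, a mean of 6.67 ± 0.602 (SD, n = 3). In chrX:53066106-53066492 the folds were 3.53, 4.86 and 4.45, and in chrX:53074797-53076328 they were 4.53, 5.34 and 4.31. Replicate 2 was highest in all 3. Median folds in replicates 1, 2 and 3 were 3.51, 4.08 and 3.25 over the intronic intervals. Over the few intervals in exons of the gene they were 5.05, 3.85 and 5.27.

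NUTM2B-AS1 is a long non-coding RNA gene antisense to NUTM2B. Its 6 regions found in all lists lay in intron 3, which is 103 kb long, and its cluster covered chr10:79676933-79690763. Intronic intervals numbered 12, 13 and 12, and lead folds were 15.9, 7.05 and 11.7. The strongest region, chr10:79680612-79683570, had the lead folds, and the others had between 2.89 and 11.8. Replicate 2 was lowest in all 6 regions and replicate 3 highest in 4. Other annotated transcripts overlap the cluster: ENSG00000280355 on the same strand held 2 exonic summits in replicate 2, ENSG00000244733 on the other strand held 2 in replicate 1, and the pseudogene BEND3P3 on the other strand held none.

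Much of this cluster has near copies elsewhere in the genome. In the intronic intervals of NUTM2B-AS1, 57.6% ± 4.41 (SD, n = 3) of the 31-base words occurred at more than 1 place on the main chromosomes, against 17.8% ± 3.46 over all members' intronic intervals and 10.4% ± 1.62 over those of other genes. Of the distinct words, 33.8% recurred in the 50 kb bin of chromosome 10 with the pseudogenes BEND3P1 and NUTM2HP, and 17.4% in the bin with NUTM2A-AS1 and LINC00863. By region, words at more than 1 place made up 44.7% to 79.8%, and were the majority in 4 of the 6. A gene of each bin had intervals of its own. BEND3P1 held 1 in each list, with folds of 16.2, 6.57 and 17.8, and NUTM2A-AS1 held 2, 4 and 5, with lead folds of 7.06, 3.37 and 6.01. The body of NUTM2A-AS1 runs beyond its bin, so its intervals are not shown to lie in the copied stretch. Replicate 2 was lowest at all 3 genes. How reads that fit several places were treated is not given in the sources used here, so these counts may be shared between copies and are uncertain. Apart from NUTM2B-AS1, such words were the majority in 1 region of the members, chr11:17339064-17339458 in NUCB2 at 56.2%. They were at most 0.297% in any PSMB7 region.

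LINC00639 is a long non-coding RNA gene with no established role. Intronic intervals numbered 9, 8 and 37, and 33 of those in replicate 3 lay in the cluster at chr14:38800825-38834988 in intron 3, against 9 and 4 in replicates 1 and 2. Only the region chr14:38800825-38802108 was found in all lists, with folds of 7.54, 3.88 and 7.37 and best summits within 37 bp. No other intronic region of the gene had a summit in every list. Median folds were 3.61, 3.12 and 3.93 over its intronic intervals and higher, at 4.78, 3.69 and 4.49, over those in its exons. The series' longest list thus supplied most of this cluster.

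CSPG4 encodes a chondroitin sulfate proteoglycan of the cell surface. It had 1, 3 and 2 intronic intervals, all in intron 1, and 5, 2 and 6 in its own exons. The region chr15:75706438-75707088 had folds of 6.50, 6.73 and 11.96, with summits within 21 bp. Median folds in replicates 1, 2 and 3 were 6.50, 4.17 and 8.20 over its intronic intervals and 2.68, 3.01 and 4.94 over those in its exons. Higher intronic medians, as in ADGRA3 and CSPG4, were not general in the members. NUTM2B-AS1 had them in every list, and COPG2 in replicates 1 and 3, with no exon interval in replicate 2. The order varied between lists in VOPP1, NUCB2, CRMP1 and GPR173 and was the reverse in every list in LINC00639. In CSPG4, exon intervals of replicate 3 reached 6.92, 6.89 and 6.80. Words at more than 1 place made up 39.1% ± 5.45 of its intronic intervals (SD, n = 3), and 26.6% of the distinct words recurred in the bin of chromosome 15 with the pseudogene CSPG4P13, which itself held no interval.

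**Figure D4:**
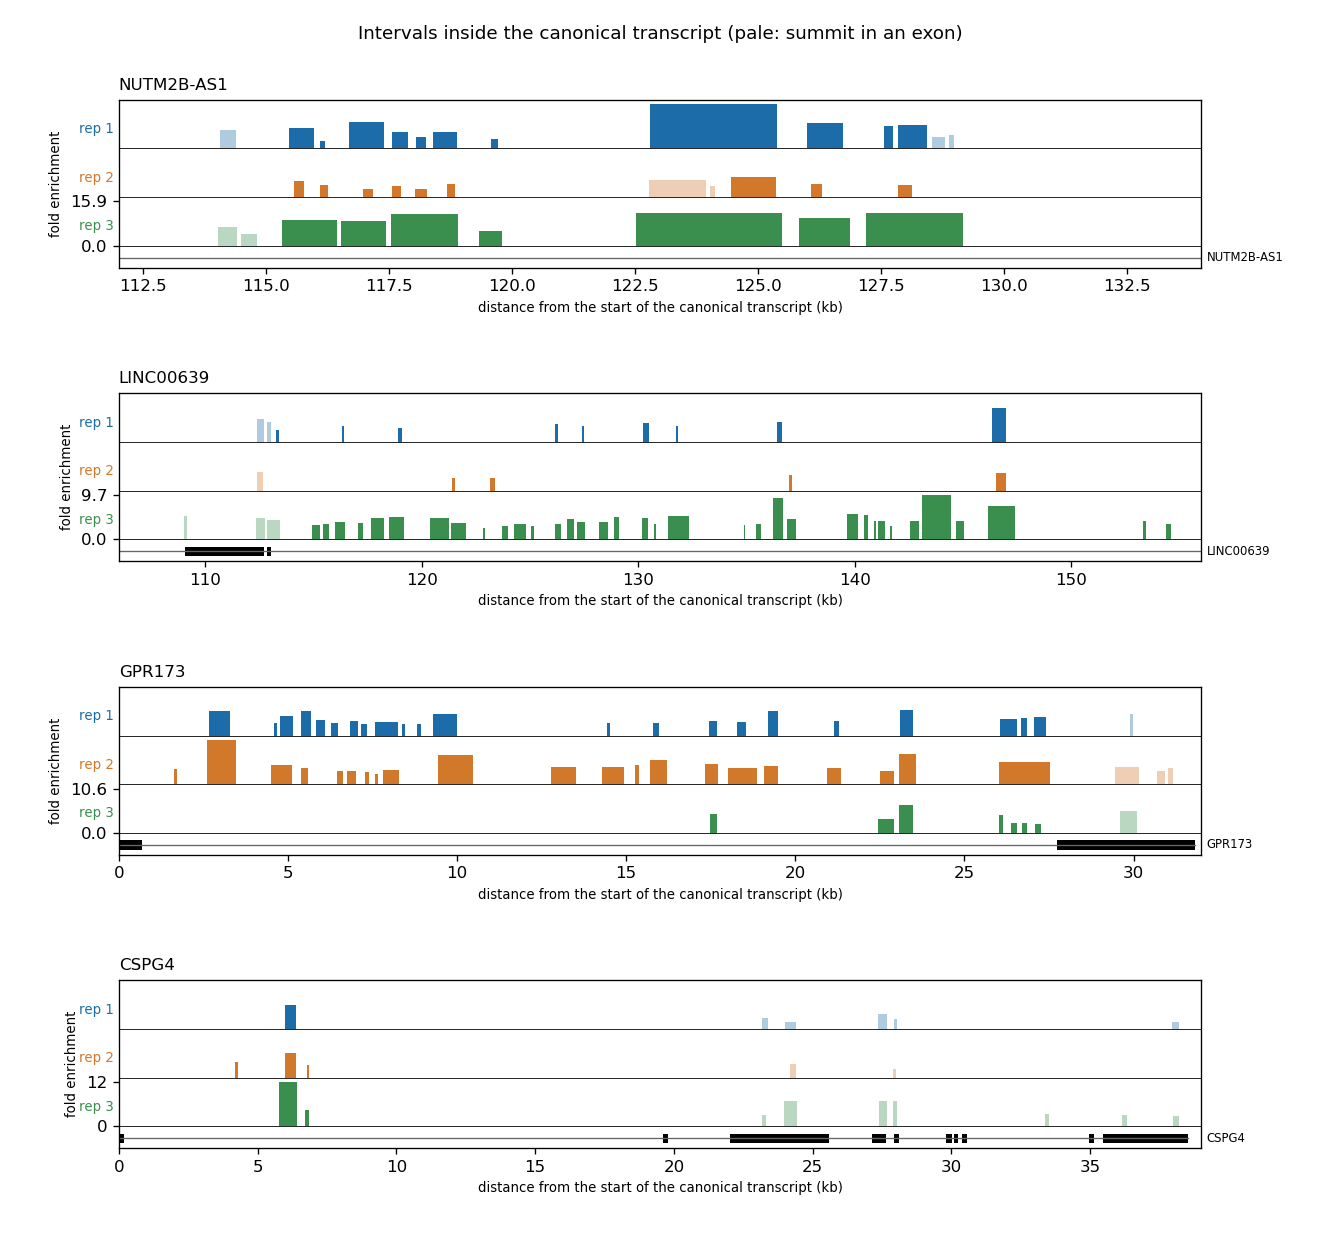
Intervals of each list in NUTM2B-AS1, LINC00639, GPR173 and CSPG4 by distance from the start of the canonical transcript in kb, with fold enrichment as bar height on a scale set per gene and canonical exons in black below; pale bars have their best summit in an exon of any isoform or gene. Replicate 3 has 35 intronic intervals in intron 3 of LINC00639 against 9 and 4 in the others, and is absent from the first part of intron 1 of GPR173.

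Across the 40 regions found in all lists, fold enrichment ran from 1.59 to 15.9. Replicate 1 was highest in 23 regions, replicate 3 in 11 and replicate 2 in 6, and replicate 2 was lowest in 24. Replicate 1 was highest throughout ADGRA3 and COPG2, and replicate 2 throughout GPR173 and in 3 of the 4 VOPP1 regions. The highest list was mixed in the 6 NUTM2B-AS1, 4 PSMB7, 3 NUCB2 and 3 CRMP1 regions, where replicate 1 led in 2, 2, 1 and 2 and replicate 3 in the rest. Lead folds, whose places can differ between lists, averaged 11.6 ± 3.97 in ADGRA3, 11.5 ± 4.41 in NUTM2B-AS1 and 8.40 ± 3.09 in CSPG4, and 4.16 ± 0.817 in VOPP1, 4.03 ± 0.902 in CRMP1 and 3.97 ± 0.760 in PSMB7 (SD, n = 3). GPR173 at 7.24 ± 3.10, NUCB2 at 7.05 ± 0.458, LINC00639 at 6.27 ± 2.06 and COPG2 at 5.04 ± 3.25 lay between, and neighbours in this order differed by less than the larger of their SDs.

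**Figure D5:**
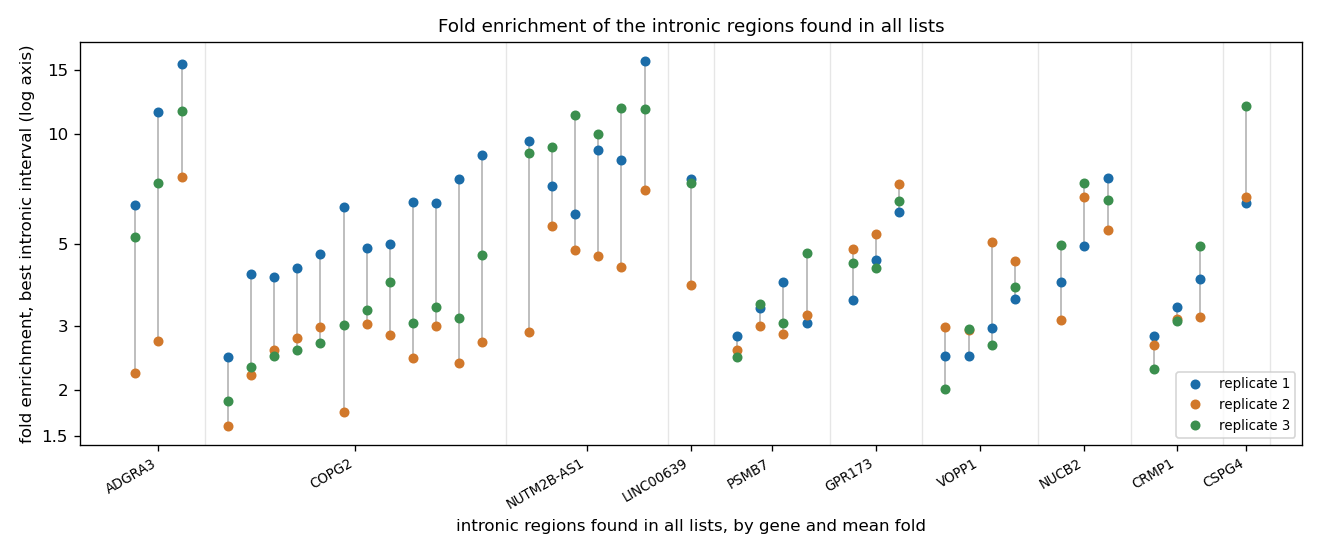
Fold enrichment (log axis) of the 40 intronic regions found in all lists, by gene and ordered by mean fold within a gene; each point is the intronic interval of 1 list with the highest −log10 q, and grey lines join the 3 lists. Replicate 1 is the highest point in all 12 COPG2 and all 3 ADGRA3 regions, and replicate 2 in all 3 GPR173 regions.

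The members' intronic intervals were wide. Their median width was 324.5, 273 and 338 bp in replicates 1, 2 and 3, against 165, 182 and 170 bp in other genes. Intervals of 1 kb or more made up 12.8% ± 8.15 in members and 0.558% ± 0.439 elsewhere (SD, n = 3). The members supplied 18 of the 45, 4 of the 13 and 24 of the 65 intronic intervals of that width. ADGRA3 and COPG2 held most of these, with 6 and 9 in replicate 1, 1 and 1 in replicate 2, and 6 and 7 in replicate 3. Median fold was 3.47 ± 0.439 in members and 3.17 ± 0.260 in other genes (SD, n = 3). The difference was smaller than the SD of the members, though larger than that of other genes. It reversed in replicate 2, at 3.10 against 3.46. Regions found in all lists had a median width of 1135.5 bp in members and 431.5 bp in other genes. The members were chosen for such regions, which need intervals that overlap between lists, so width was not independent of the choice. Of the members' intronic intervals, 54.6% ± 9.93 lay in regions found in all lists, against 12.1% ± 10.4 in other genes (SD, n = 3). The widths are therefore a description and carry no test. The best summits of the lists lay within 50 bp of each other in 13 of 40 regions (32.5%) in members and in 73 of 248 (29.4%) elsewhere, while the median spread of the best summits was wider in members, at 220 bp against 107 bp.

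Base composition was not used to choose the members. Mean GC content within 50 bases of the intronic summits was 44.2%, 43.98% and 41.9% in members and 44.7%, 41.03% and 41.8% in other genes in replicates 1, 2 and 3. The difference averaged 0.852 ± 1.84 percentage points (SD, n = 3), higher in members in 2 of 3 lists. Flipping the signs of the 3 differences in every way (exact two-sided permutation test) gave p = 0.75, where the smallest possible p is 0.25. The lists share the members' genes and many of their places, so the 3 differences are not independent. The p-value does not measure spread between genes. The members differed more among themselves than from the rest, from 36.7% ± 4.56 in NUCB2 and 38.1% ± 1.14 in NUTM2B-AS1 to 49.4% ± 2.40 in PSMB7 and 60.4% ± 2.62 in CSPG4 (SD, n = 3).

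Short motifs in the same 101-base windows, searched on both strands, were counted as a description. AATAAA was in 17.2% ± 1.21 of the members' windows and 15.05% ± 2.53 of those of other genes (SD, n = 3). By member it ranged from 0 of 6 windows in CSPG4 to 12 of 26 in NUCB2 and 13 of 36 in ADGRA3. GTAAGT was in 6.24% ± 1.63 and 6.20% ± 1.37. A run of 10 A, or of 10 T on the other strand, was in 0.280% ± 0.485 of the members' windows, which is a single window in GPR173, and in 1.77% ± 0.292 elsewhere. A pattern of 4 G runs, each 3 or more long with loops of 1 to 7 bases between, was in 0.321% ± 0.555, again a single GPR173 window, and in 1.24% ± 0.684 elsewhere.

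Of 32 genes related to the members by family or complex, 11 had an interval in every list, 7 had a region found in all lists and 8 had no interval. The matching shares over all genes are not given here, so these counts are not read as many or few. Those 7 were the coat subunit genes COPA, ARCN1 and COPZ1, with 4, 7 and 1 such regions, the CRMP1 relatives DPYSL2 and DPYSL3, with 6 and 2, the ADGRA3 relative ADGRA1 with 2, and NUTM2A-AS1 with 1. NUTM2A-AS1, which reaches into a bin that shares words with NUTM2B-AS1, was the only one of the 32 with an intronic region found in all lists. Among the 13403 genes with a summit in at least 1 list the share was 1.85%. That base leaves out genes with no interval, while the 32 include 8 of them, so the shares are not on the same base. COPG1, the other gamma coat subunit gene, had 7, 0 and 11 intervals with none intronic, and none of the proteasome subunit genes listed had a region in all lists.

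The genes most like the members, by the number of intronic regions found in all lists, were ZNF91 with 7, LRP1 with 5, and ATRNL1, COL5A1 and ENSG00000285582 with 4 each. The naming stopped at 5 genes, with ties taken by name, and 6 genes in all had a count of 4, PSMB7 and VOPP1 among them. All 7 regions of ZNF91, a zinc finger gene on chromosome 19, lay past its canonical 3' end, the layout of ADGRA3, VOPP1 and NUCB2, with lead folds of 7.61, 5.29 and 10.2. LRP1, a receptor gene, had 4 of its regions in intron 6, and ATRNL1 had all 4 in intron 8 with lead folds of 9.58, 6.43 and 14.9. ENSG00000285582 runs antisense within ATRNL1 and has the same lead folds. Its body held 14, 8 and 13 intronic intervals, and that of ATRNL1 14, 10 and 19, so their values are not separate.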

How the data were processed

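DDX5 RNA immunoprecipitates of RH30 nuclei were given as 3 deposited peak lists. Per the submitters' processing notes, bcl2fastq 2.20, FastQC 0.11.8, cutadapt 1.11, STAR 2.6.1d, SAMtools 1.10, MACS2 2.2.7.1 and the build GRCh38 were used; parameters and the control of the peak calls are not given in the sources used here. The authors' values are a fold enrichment over the caller's background (a ratio), a p-value and a q-value on the −log10 scale, and a score that was not used; they describe, rank and filter peaks within a list. A fold is not enrichment over INPUT and can carry RNA abundance. In the lists, 36.5%, 37.0% and 43.4% of the members' intronic intervals carried the same fold and p as 10 or more intervals of their list, counted with themselves. Depth is unknown, so no counting interval is given.

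Summits in 1 interval were counted once, by the highest −log10 q, on the main chromosomes. Genes, exons and canonical transcripts came from GENCODE version 44. A summit counted for every gene body that held it. Clusters joined intronic intervals of any list with gaps up to 5 kb, and neighbours were sought within 10 kb. The named genes were the members, their neighbours, 32 related genes by counts, and the 5 other genes with most intronic regions found in all lists. Members and lists were chosen with earlier results of these data known. The sequences shown cover 8 members; those of the other 2 are not reported here. Words of 31 bases were counted on both strands. Alternatives were q under 1e-05, a fold of at least 4, equal list lengths, unique gene bodies, each replicate left out, other overlaps, canonical introns, wider windows and 1 value per gene. A planned share of repeat-masked bases was not run, since the reference used here has no soft-masking. Python 3.11.15, NumPy 2.4.6, Numba 0.67.0, pyfaidx 0.9.0.4 and Matplotlib 3.10.9 were used, and the computations were tested on simulated data.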

Additional observations from a re-analysis of the deposited data

How the results depend on the processing

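The intronic share of the members' intervals stayed between 66.5% and 76.9% with q under 1e-05, a fold of at least 4, equal list lengths, unique gene bodies and each replicate left out, and was 59.97% when intronic meant an intron of the canonical transcript, which leaves out what lies past its end. Requiring a fold of at least 4 lowered the mean number of intervals to 56.7 and the intronic regions found in all lists to 11. These regions numbered 12 with a reciprocal overlap of 50%, 21 with summits within 100 bp, 34 with q under 1e-05 and 37 with equal list lengths. With 1 replicate left out, which asks for only 2 lists, they numbered 57 to 62, and 62 without replicate 2; the mean number of intervals ran from 155 to 180. The GC difference was -0.608 with windows of 250 bases on each side (exact sign-flip p = 0.5). With 1 replicate left out it was -0.198 to 1.52, with -0.198 without replicate 2. Over all alternatives the exact sign-flip p was 0.5 to 1. With 1 replicate left out only 2 lists remain and this p cannot fall below 0.5. With 3 lists it cannot fall below 0.25. These p-values therefore do not show that members and other genes are alike. The share of repeat-masked bases was not run in any setting. No paired analysis was possible because the INPUT samples that share the replicate numbers were not analysed here. Depth is unknown, so an interval missing from a list does not show that the RNA was absent, and the control behind the folds is not given in the sources used here. RH30 is a single cell line, so nothing here speaks of spread between lines. The strand of the RNA, near copies in NUTM2B-AS1 and CSPG4, repeated words in a NUCB2 region, and the effect of RNA abundance were not resolved.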
